A study of Homo sapiens with 15 samples.

Results

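The set described here held 40 genes of G2 phase and mitosis, chosen by their symbols in the deposited gene tables of MRC5 and H196 cells. All 40 were present in both tables, among 16382 genes in the MRC5 table and 16076 in the H196 table, and all 40 passed the filter on low counts. H69 and H196 are small cell lung cancer (SCLC) lines, H69 neuroendocrine (NE) and H196 non-NE, and MRC5 is a line of lung fibroblasts. MRC5 cells were grown alone (MRC5_Mo), or for a week with H69 (MRC5_CoH69) or H196 (MRC5_CoH196) on a porous insert, and H196 cells were grown alone (H196_Mo) or with MRC5 on the insert (H196_Co). MRC5 was kept in MEM and the SCLC lines in RPMI, and the medium of the co-cultures was not given in the sources used here. Each group had 3 libraries described as parallel replicates of 1 line, so p-values measured only the spread among these libraries, which may be technical.

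Cells that pass from G2 into mitosis need cyclin-dependent kinase 1 (CDK1) bound to cyclin B, and CDC25 phosphatases remove the phosphates that hold this complex inactive. FOXM1 and the MYBL2-MuvB complex switch on a late wave of genes for the spindle, the kinetochore and cytokinesis, and in resting cells the DREAM complex keeps the same genes silent. Both act through promoters that often carry a CHR element (cell cycle genes homology region) near the transcription start and CCAAT boxes bound by NF-Y further upstream. Because these RNAs build up in G2 and fall after division, their level in a culture rises with the share of cycling cells. In bulk RNA, fewer cells in G2 and mitosis cannot be told apart from less RNA in each such cell.

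The promoters shared these letters to an unequal degree. RefSeq promoter windows, from 250 bases before to 50 after the transcription start, were matched for 34 of the 40 genes (GRCh38.p14), and AURKA, BIRC5, FOXM1, TPX2, TTK and UBE2C had no entry. The CHR letters, TTTGAA and the less common form TTCGAA on either strand, were found in 25 of the 34 windows (73.5%), against 16.4% of 35116 windows of all genes and 11.2% of the 10387 windows of genes tested in MRC5. They lay from 60 bases before to 30 after the start in 19 of 34 (55.9%), against 4.70% of all windows. CCAAT, on either strand, was found in 25 of 34 (73.5%) against 34.6% of all windows, and CHR and CCAAT together in 20 of 34 (58.8%) against 6.38%. E2F letters (TTGGCGC, or else the form TTCGCGC, or else the form TTCCCGC, on either strand) were found in 10 of 34 (29.4%) against 17.8% of the windows of genes tested in MRC5. Forkhead letters (GTAAACA, or else the form ATAAACA, on either strand) were found in 1 window, that of CDK1 (2.94%). The share was 7.43% of all windows and 4.14% of the windows of genes tested in MRC5. The shares describe letters in these windows, not bound sites, and the motifs were searched separately, so places may overlap. The 200 bases before the start of 5 genes are printed because they span the responses described below, with CHR and CCAAT letters in capitals on the gene's strand. Within these bases CCNB2, PLK1 and CDC20 hold both kinds of letters. CCNB1 holds CCAAT but no CHR letters, and CDK1 holds 1 of each far from the start. Only the CHR forms named above and a single start per gene were searched. An element of another form, or near another start, would be missed.
CCNB2: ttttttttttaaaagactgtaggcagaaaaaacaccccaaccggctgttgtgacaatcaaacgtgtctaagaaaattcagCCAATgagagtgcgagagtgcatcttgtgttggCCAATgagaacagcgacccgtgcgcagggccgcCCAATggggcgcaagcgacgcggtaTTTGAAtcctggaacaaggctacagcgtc
PLK1: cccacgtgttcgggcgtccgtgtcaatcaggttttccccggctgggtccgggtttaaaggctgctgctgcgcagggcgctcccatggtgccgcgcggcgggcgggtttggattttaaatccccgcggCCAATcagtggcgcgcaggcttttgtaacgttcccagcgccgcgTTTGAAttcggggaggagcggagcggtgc
CDC20: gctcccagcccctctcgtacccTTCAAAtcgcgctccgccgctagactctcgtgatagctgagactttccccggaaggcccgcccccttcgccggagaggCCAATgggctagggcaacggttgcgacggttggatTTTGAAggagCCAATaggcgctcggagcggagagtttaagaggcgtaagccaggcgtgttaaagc
CCNB1: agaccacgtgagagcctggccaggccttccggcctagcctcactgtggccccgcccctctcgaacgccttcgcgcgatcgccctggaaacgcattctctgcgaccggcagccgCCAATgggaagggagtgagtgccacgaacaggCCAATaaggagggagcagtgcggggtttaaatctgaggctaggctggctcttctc
CDK1: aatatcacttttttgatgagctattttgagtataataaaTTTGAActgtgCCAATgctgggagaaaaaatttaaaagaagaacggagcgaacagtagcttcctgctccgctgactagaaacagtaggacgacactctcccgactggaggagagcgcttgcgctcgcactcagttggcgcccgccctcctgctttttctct
The windows printed were CCNB2 chr15:59104946-59105145, PLK1 chr16:23678689-23678888, CDC20 chr1:43358781-43358980, CCNB1 chr5:69166950-69167149 and CDK1 chr10:60778131-60778330, all on the plus strand. In CCNB2 and PLK1 the TTTGAA began 29 bases before the start, and in CDC20 it began 65 bases before it. In CDK1 the TTTGAA began 161 bases before the start. Among genes with a window, CHR letters were no more frequent in those that fell by the full criteria in MRC5_CoH196. FOXM1, AURKA, BIRC5 and TPX2 also fell by these criteria but had no window, so the comparison leaves them out. Of the 34 genes with a window, 13 were among those that fell by the full criteria in MRC5_CoH196, and 8 of these 13 (61.5%) held CHR letters, against 17 of the other 21 (81.0%).

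**Figure D1:**
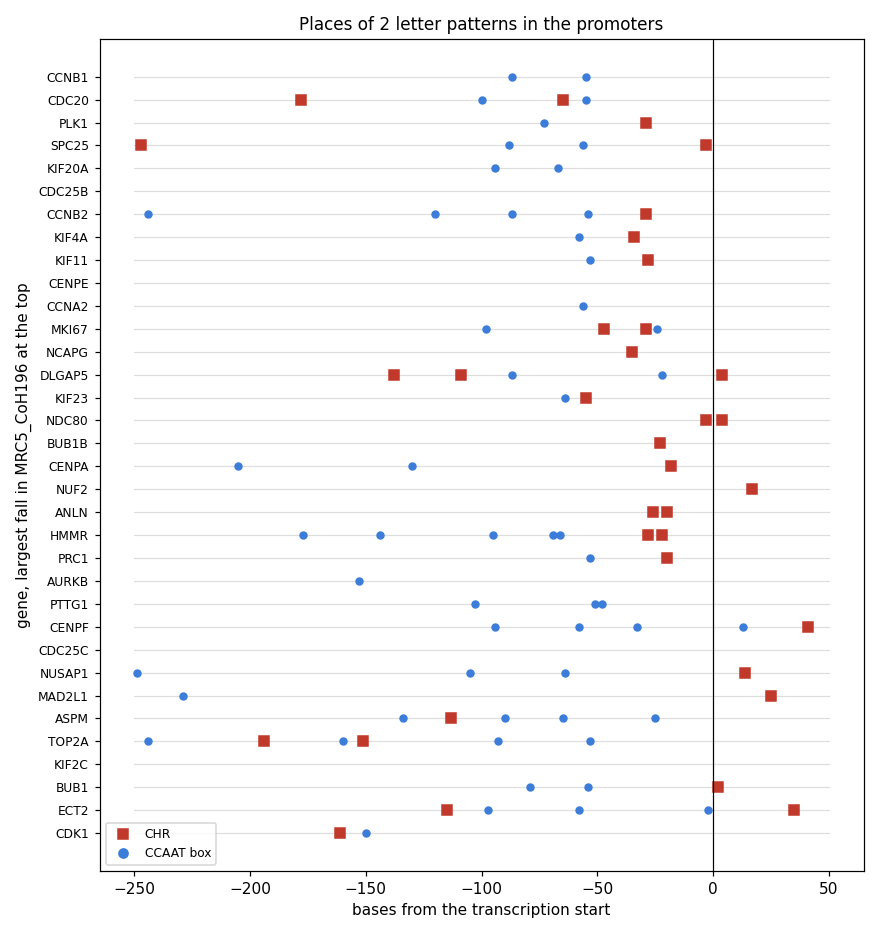
Places of the CHR letters (red squares) and CCAAT letters (blue circles) in the promoter windows of 34 genes, by distance in bases from the transcription start, with the largest fall in MRC5_CoH196 at the top. CHR letters lie near the start in 19 of the 34 genes. CCNB1 at the top holds CCAAT but no CHR letters, and CDK1 at the bottom holds both kinds of letters more than 100 bases upstream. Other CHR forms and other starts were not searched.

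The genes were transcribed in every group, and H196 cells held more of their RNA than MRC5 cells. Total counts per library ranged from 16073597 to 19170560. FPKM (fragments per kilobase of transcript, scaled to sequencing depth), summed over the 40 genes, was 1015, 1127 and 1170.4 in MRC5_Mo, 939.6, 927 and 949 in MRC5_CoH69, and 674, 667 and 632 in MRC5_CoH196. The sums were 3434, 3184 and 3267 in H196_Mo and 3298.5, 3109.9 and 3118 in H196_Co. No MRC5 group overlapped another, and every H196 library stood above every MRC5 library, while the 2 H196 groups overlapped. Mean FPKM followed the order MRC5_Mo, MRC5_CoH69, MRC5_CoH196 from high to low in 39 of the 40 genes, CDK1 being the exception, and in 36 of 40 on TMM-scaled counts scaled to library size (CPM). TMM, the trimmed mean of M-values, rescales libraries so that most genes do not differ. FPKM was not rescaled in this way. Genes in general stood lower in MRC5_CoH196 than in MRC5_Mo on log2(FPKM + 1), with a median change of -0.13. In MRC5_CoH69 the same median was -0.009. The lower summed FPKM of MRC5_CoH196 and the 39 of 40 include this general shift. How many of all genes tested followed the same order was not counted. Fibroblast markers were present in MRC5, with 14 of 14 at a mean of at least 1 FPKM in each MRC5 group and 3 of 14 in each H196 group, and their summed FPKM ran from 11017 to 12489 in MRC5 libraries and from 3029 to 3501 in H196 libraries. Of 17 NE and epithelial markers, 5 reached that level in each MRC5 group and 7 in each H196 group. A list of 95 genes high in H196 (at least 20 CPM) and low in MRC5_Mo (under 0.5 CPM) stood in MRC5_CoH196 at 0.686%, 0.791% and 0.304% of its H196 level. MRC5_CoH69 libraries stood at 0.133%, 0.107% and 0.127%. MRC5_Mo libraries stood at 0.115%, 0.127% and 0.118%, but their level was held low by the choice of genes. A stricter list of 58 genes, at least 10 CPM in H196 and 0 counts in MRC5_Mo, stood at 0.456%, 0.567% and 0.0647% in MRC5_CoH196. In MRC5_CoH69 the stricter list stood at 0.0052%, 0.0054% and 0.0032%. Genes that rose in MRC5 itself would also count in these lists. The part of H196 RNA in the results was not tested.

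**Figure D2:**
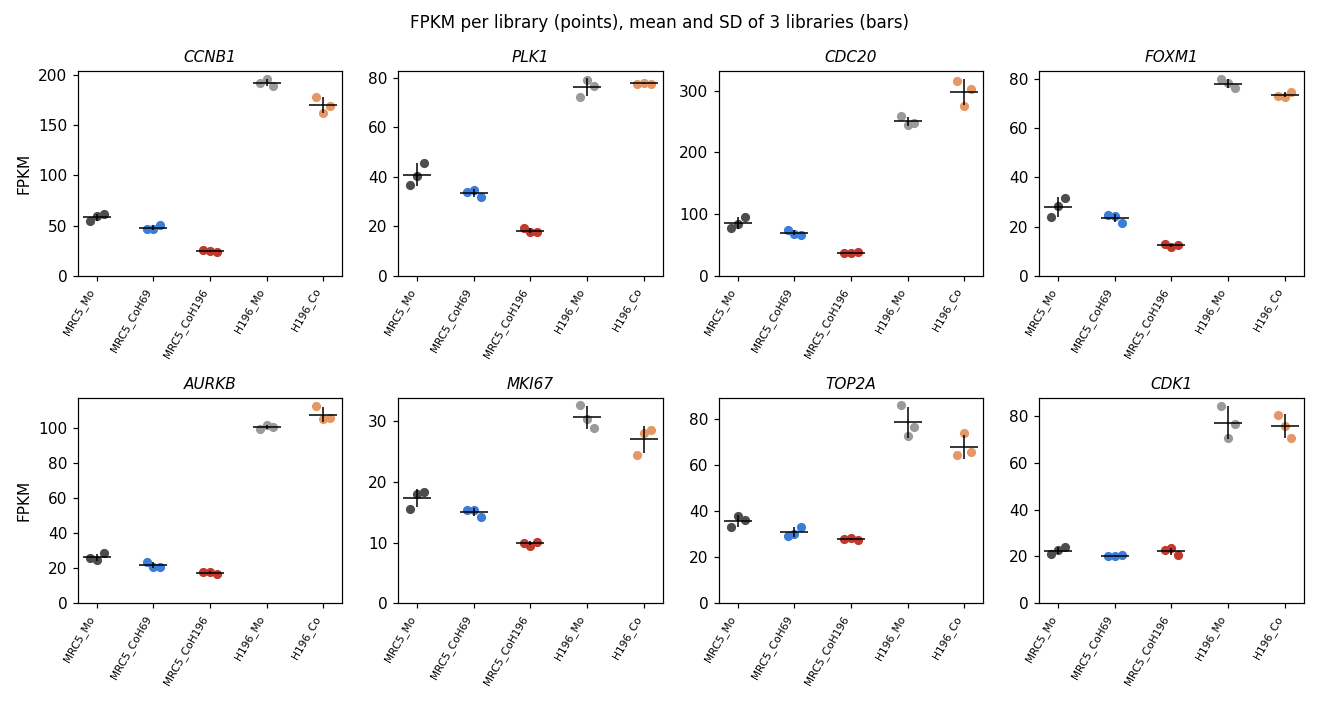
FPKM of 8 genes in each library (points), with the mean (horizontal bar) and SD (vertical line) of the 3 libraries of a group. CCNB1, PLK1, CDC20 and FOXM1 are lower in MRC5_CoH196 than in MRC5_Mo without overlap and stand higher in both H196 groups. FOXM1 overlaps between MRC5_Mo and MRC5_CoH69. CDK1 lies between 20.2 and 23.97 in all MRC5 libraries.

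H196_Mo was compared with MRC5_Mo to place the baselines of the lines. By the criteria used throughout, a change of more than 0.58 on the log2 scale in either direction with an adjusted p (edgeR quasi-likelihood test, Benjamini-Hochberg) under 0.05, 30 of the 40 genes were higher in H196_Mo and 0 lower, where 31.5% of 13585 genes tested were higher and 30.2% lower. With no limit on size, 39 were higher and 1 lower at adjusted p under 0.05, against 44% and 42.6% of genes tested. The same 39 and 1 did not overlap between the lines in TMM-scaled CPM, against 44.5% and 43.1% of genes. The median log2 fold change of the 40 genes was 1.16, against 0.03 for all genes tested. HMMR, a spindle protein that also binds hyaluronan, showed the largest difference, with FPKM of 68.4, 54.3 and 53.1 in H196_Mo and 9.10, 10.6 and 10.04 in MRC5_Mo (log2 fold change 2.12, SE 0.08, edgeR adjusted p 1.63e-20). CDC25C, a phosphatase that activates CDK1, stood at 20.3, 19.03 and 19.8 FPKM in H196_Mo against 3.22, 4.05 and 4.36 (log2 fold change 1.92, SE 0.09, edgeR adjusted p 1.53e-17). TTK, the kinase that starts the spindle checkpoint, stood at 37.2, 30.6 and 31.9 against 6.37, 7.26 and 6.98 (log2 fold change 1.85, SE 0.07, edgeR adjusted p 1.52e-19). The 3 genes did not overlap between the lines. PRC1, which bundles microtubules of the central spindle, and MAD2L1, a checkpoint protein that holds CDC20, differed least among the genes that were higher, at 0.33 and 0.35. Their FPKM were 75.6, 76.5 and 75.01 in H196_Mo against 39.8, 45.8 and 47.7 in MRC5_Mo for PRC1, and 14.3, 12.4 and 13.1 against 7.02, 8.14 and 7.80 for MAD2L1. ANLN, a scaffold of the cleavage furrow, was lower in H196_Mo by the joint fit (log2 fold change -0.30, SE 0.06, edgeR adjusted p 7.99e-05) but higher on log2(FPKM + 1), by 0.14, with FPKM of 56.3, 48.9 and 49.8 against 42.2, 49.4 and 48.9. The median of all genes also moved, to 0.34 on log2(FPKM + 1), so values between the lines depend on the scale. Line, medium and gene table cannot be told apart in this comparison.

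In MRC5 co-cultured with H196, most of the mitosis genes were lower than in MRC5 alone. Of the 40 genes, 17 fell by the full criteria in MRC5_CoH196 against MRC5_Mo and 0 rose, where 14.7% of 12819 genes tested fell and 17.2% rose. At adjusted p under 0.05 with no limit on size, 38 were lower and 1 higher, against 37.1% and 37.2% of genes tested. The median log2 fold change of the 40 genes was -0.53, against -0.003 for all genes tested, and the range ran from -1.06 to 0.15. In 35 of the 40 genes every MRC5_CoH196 library lay below every MRC5_Mo library in TMM-scaled CPM, where 37.9% of genes tested did so.

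The cyclins and the activators of CDK1 fell while CDK1 itself did not. CCNB1, cyclin B1, the partner of CDK1 in mitosis (gene 891, chromosome 5, 69167150 to 69178245, GRCh38.p13), had FPKM of 54.6, 59.4 and 61.4 in MRC5_Mo and 25.3, 25.2 and 23.9 in MRC5_CoH196. The groups were far apart, and the fall was the largest of the 40 (log2 fold change -1.06, SE 0.05, edgeR adjusted p 2.61e-15). CDC25B stood at 39.5, 38.8 and 40.8 FPKM in MRC5_Mo and 18.96, 18.8 and 16.9 in MRC5_CoH196, and CCNB2 at 27.7, 32.2 and 33.5 against 13.7, 14.7 and 16.5, both without overlap. CDC25B, which activates CDK1 at the start of mitosis, CCNB2 (cyclin B2) and CCNA2 (cyclin A2, which acts from S phase on) fell by 0.95, 0.89 and 0.63 on the log2 scale, and CDC25C had a smaller value of -0.31 (edgeR adjusted p 0.0327), a call lost without library 2 or 3 of either group (-0.21 to -0.30). CDK1 (gene 983, chromosome 10, 60778331 to 60794852) stood at 20.95, 22.7 and 23.97 FPKM in MRC5_Mo and 22.6, 23.6 and 20.5 in MRC5_CoH196. These ranges overlapped, and the sign of its change depended on the scale, with a log2 fold change of 0.15 (SE 0.06, edgeR adjusted p 0.0269) on TMM-scaled counts and -0.019 on log2(FPKM + 1). The call for CDK1 was lost by the DESeq2 Wald test and on leaving out MRC5_Mo library 1 or 2 or MRC5_CoH196 library 1 or 2, with values of 0.10 to 0.16 in those fits.

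FOXM1, the forkhead transcription factor of the G2 program (gene 2305, chromosome 12, 2857252 to 2877174), was among the largest falls. Its FPKM was 23.8, 28.2 and 31.7 in MRC5_Mo and 12.97, 11.7 and 12.7 in MRC5_CoH196, with no overlap (log2 fold change -0.99, SE 0.08, edgeR adjusted p 2.3e-11). The mitotic kinases divided into large and small responses. PLK1, which drives centrosome maturation and mitotic entry (gene 5347, chromosome 16, 23678889 to 23690367), went from 36.5, 40.5 and 45.6 FPKM to 19.3, 17.9 and 17.7 (log2 fold change -0.99, SE 0.07, edgeR adjusted p 1.58e-12). AURKA, the centrosome and spindle pole kinase, fell by 0.90, with FPKM of 36.9, 37.4 and 40.3 against 18.1, 18.8 and 17.4. AURKB, the kinase of the chromosomal passenger complex, was at 25.8, 24.7 and 28.6 FPKM in MRC5_Mo and 17.9, 18 and 16.4 in MRC5_CoH196, a smaller fall without overlap (log2 fold change -0.43, SE 0.07, edgeR adjusted p 1.34e-05). BUB1, a kinase that recruits checkpoint proteins to kinetochores, had a log2 fold change of -0.16 (edgeR adjusted p 0.0126), lost without library 2 or 3 of MRC5_Mo (-0.14 and -0.13). TTK was at 6.37, 7.26 and 6.98 against 5.37, 5.75 and 5.48 FPKM and did not pass the test (log2 fold change -0.14, SE 0.07, edgeR adjusted p 0.0953), although it did on log2(FPKM + 1) at -0.27 and without library 1 of MRC5_Mo at -0.19.

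Among genes of the spindle checkpoint and anaphase, CDC20 had the largest fall. CDC20 activates the anaphase-promoting complex (APC/C), the ligase that ends mitosis (gene 991, chromosome 1, 43358981 to 43363203). It went from 77.5, 84.5 and 96.01 FPKM in MRC5_Mo to 37.9, 37.1 and 38.1 in MRC5_CoH196 (log2 fold change -1.02, SE 0.06, edgeR adjusted p 2.71e-13). The other 4 genes of this role passed the test with falls short of the limit on size. They were BUB1B, a checkpoint inhibitor of CDC20 (-0.52), PTTG1, the securin that holds separase (-0.42), MAD2L1 (-0.28) and UBE2C, a ubiquitin-conjugating enzyme of the APC/C (-0.26). PTTG1 and KIF4A have near-identical copies, so their counts are less certain, although PTTG2 and KIF4B were each under 1 FPKM in all libraries.

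Kinetochore and centromere genes were lower at adjusted p under 0.05 in 6 of 6 cases, 2 of them by the full criteria. Of all genes tested, 37.1% were lower at adjusted p under 0.05 and 14.7% by the full criteria. SPC25, a subunit of the NDC80 complex that grips microtubules, had FPKM of 8.08, 8.63 and 10.4 in MRC5_Mo and 4.49, 4.05 and 3.66 in MRC5_CoH196. It fell by 0.98 (SE 0.12, edgeR adjusted p 1.22e-07), and its partners NDC80 and NUF2 had values of -0.54 and -0.47. CENPE, a kinetochore motor, fell by 0.67, CENPA, the histone variant of centromeres, had a value of -0.51, and CENPF, a kinetochore protein that appears in G2, had -0.40. Spindle motors and microtubule proteins were lower in 8 of 8 cases, 3 by the full criteria, and these were KIF4A, a chromosome-bound kinesin (-0.82), KIF11, the kinesin that pushes spindle poles apart (-0.69), and TPX2, the activator of AURKA (-0.64). KIF11 was at 12.1, 13.4 and 13.4 FPKM in MRC5_Mo and 7.16, 7.30 and 6.85 in MRC5_CoH196, without overlap. KIF2C, a kinesin that takes microtubules apart, had the smallest value of this role at -0.18 (edgeR adjusted p 0.00693), lost without library 3 of MRC5_CoH196 (-0.13).

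Genes of the central spindle and cytokinesis were lower at adjusted p under 0.05 in 6 of 6 cases, 2 by the full criteria. Of all genes tested, 37.1% and 14.7% were lower by these limits. KIF20A, a kinesin of the central spindle, fell by 0.96, from 31.7, 33.1 and 35.6 FPKM to 16.5, 15.4 and 13.99, and BIRC5, survivin, the passenger complex subunit that places AURKB, fell by 0.88, from 36.9, 42.9 and 41.4 FPKM to 20.5, 18.95 and 19. Neither gene overlapped between the groups. KIF23, the motor of the centralspindlin complex, ended just short of the limit at -0.57, ANLN had -0.47 and PRC1 -0.43. ECT2, the exchange factor that switches on RhoA at the cleavage site, was at 12.8, 14.4 and 14.3 FPKM in MRC5_Mo and 10.2, 11.3 and 11.9 in MRC5_CoH196. Its log2 fold change was -0.15 (SE 0.06, edgeR adjusted p 0.0223), with overlap in TMM-scaled CPM, and the call was lost on leaving out MRC5_Mo library 2 or 3 or MRC5_CoH196 library 1 or 2 (-0.09 to -0.15).

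The widely used proliferation markers did not move alike. MKI67, which codes for the Ki-67 antigen that coats mitotic chromosomes (gene 4288, chromosome 10, 128094498 to 128126762), had FPKM of 15.6, 18.1 and 18.3 in MRC5_Mo and 9.96, 9.50 and 10.2 in MRC5_CoH196. It fell by 0.63 (SE 0.06, edgeR adjusted p 3.11e-10), without overlap, and NCAPG, a condensin subunit, fell by 0.62. TOP2A, the topoisomerase that untangles sister chromatids (gene 7153, chromosome 17, 40388525 to 40417915), had FPKM of 33.1, 37.9 and 36.2 and then 27.9, 28.5 and 27.3. TOP2A passed the test but with a log2 fold change of -0.18 (SE 0.05, edgeR adjusted p 0.0021). Around the limit on size, CENPE, TPX2, CCNA2, MKI67 and NCAPG lay from -0.67 to -0.62, and DLGAP5 and KIF23 lay at -0.58 and -0.57, so the count of 17 depends on where the limit lies. On log2(FPKM + 1) the median of all genes in this comparison was -0.13 and that of the 40 genes -0.63, so the distance between them was similar on both scales.

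**Figure D3:**
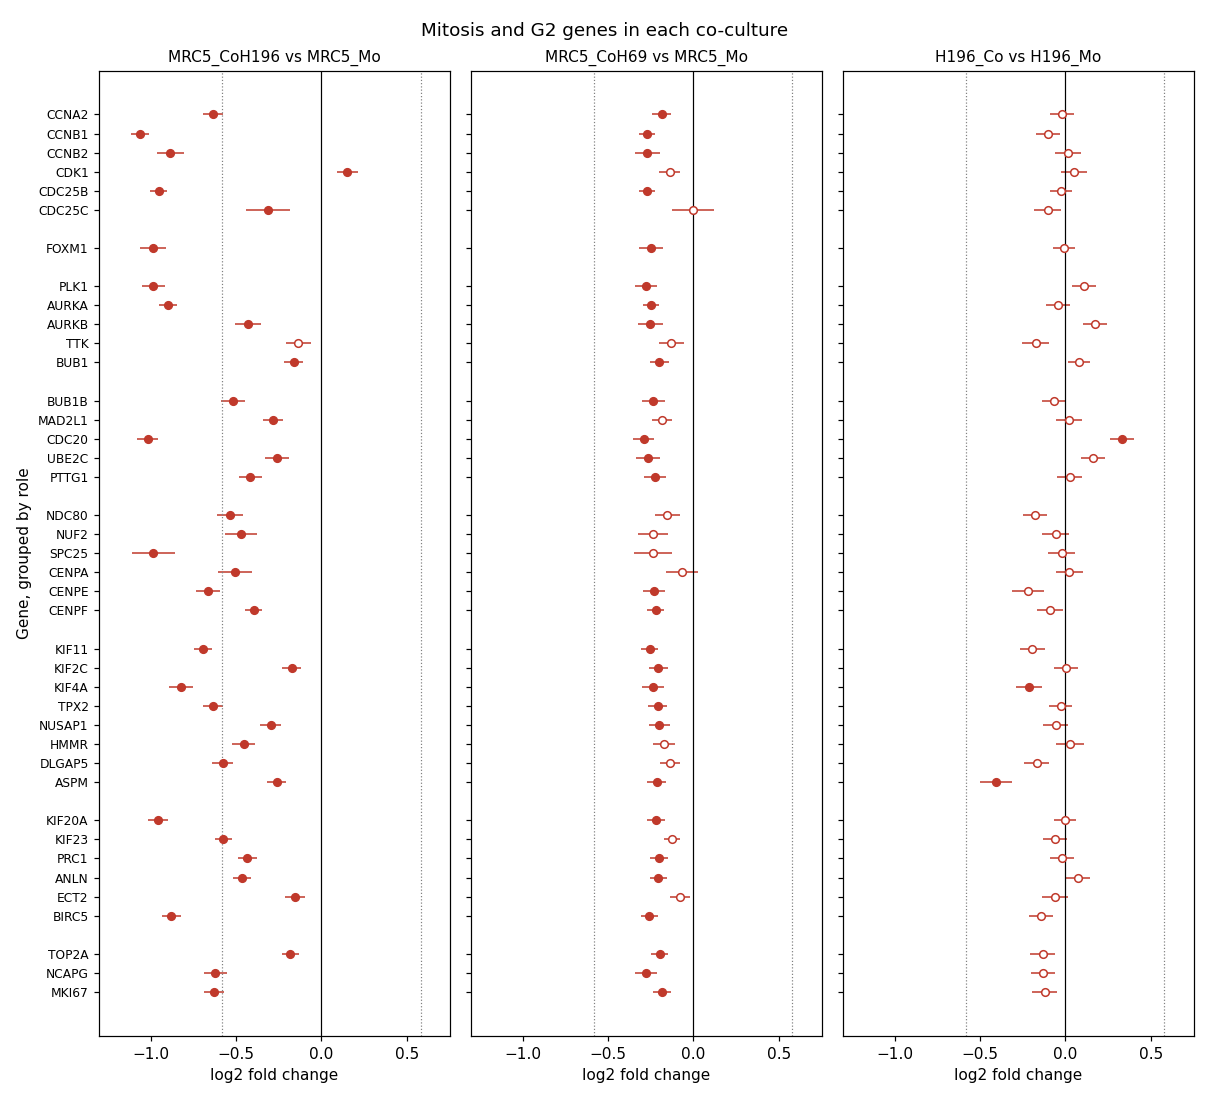
Log2 fold change (point) with its SE (bar) for each of the 40 genes in 3 comparisons, grouped by role, with filled points at adjusted p under 0.05 and dotted lines at the limit of 0.58 on either side. In MRC5_CoH196 the falls reach -1.06 for CCNB1 with CDK1 at 0.15, in MRC5_CoH69 no point passes -0.29, and in H196_Co the points lie on both sides of 0.

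In MRC5 co-cultured with H69, the 40 genes had small negative values, and the size limit was reached by none. In MRC5_CoH69 against MRC5_Mo, 0 of 40 genes met the full criteria, where 0.133% of genes tested were lower and 0.421% higher, and DESeq2 also gave 0. At an unadjusted p under 0.05 by edgeR, 36 were lower and 0 higher, against 9.45% and 10.6% of genes tested. At adjusted p under 0.05, 28 were lower and 0 higher, where 2.93% of genes tested were lower and 3.78% higher, and the median log2 fold change of the 40 genes was -0.22 against -3.36e-05 for all genes. In 27 of the 40 genes every MRC5_CoH69 library lay below every MRC5_Mo library in TMM-scaled CPM, where 12.1% of genes tested did so. CDC20 had FPKM of 74.6, 68.7 and 66.3, below all of MRC5_Mo (log2 fold change -0.29, SE 0.06, edgeR adjusted p 0.00286). PLK1 had FPKM of 33.8, 34.8 and 31.9, below all of MRC5_Mo (log2 fold change -0.28, SE 0.06, edgeR adjusted p 0.00678). NCAPG was at 6.97, 7.17 and 7.69 FPKM against 8.12, 9.17 and 9.34 (log2 fold change -0.28, SE 0.07, edgeR adjusted p 0.0088). These 3 genes had the lowest values of the 40. CCNB1, at 46.7, 47.1 and 50.6 FPKM, had a log2 fold change of -0.27 (edgeR adjusted p 0.00079). FOXM1 (-0.25), AURKB (-0.25), TOP2A (-0.20) and MKI67 (-0.18) also passed, with edgeR adjusted p of 0.0371, 0.0333, 0.0159 and 0.0431. The genes nearest to no change were ECT2 (13.02, 12.6 and 13.5 FPKM, log2 fold change -0.08), CENPA (10.02, 10.9 and 9.30 against 10.6, 10.5 and 10.6, -0.07) and CDC25C (3.63, 4.10 and 3.85, -0.002), none of which passed the test. CDK1, at 20.4, 20.2 and 20.5 FPKM, did not pass either (-0.14, edgeR adjusted p 0.188).

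The number of genes that passed in this comparison depended on single libraries. Among the named genes, FOXM1, AURKB, TOP2A, MKI67, NCAPG and PLK1 each lost the call without library 3 of MRC5_Mo (-0.15 to -0.25). The number was 7 without library 3 of MRC5_Mo, 10 without library 2 and 33 without library 1, which had the lowest summed FPKM of that group. It was 12, 14 and 16 without library 1, 2 or 3 of MRC5_CoH69, and 7 by limma on log2(FPKM + 1). MRC5_CoH69 and MRC5_CoH196 were compared with the same 3 control libraries, so a shift in those libraries enters both comparisons.

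**Figure D4:**
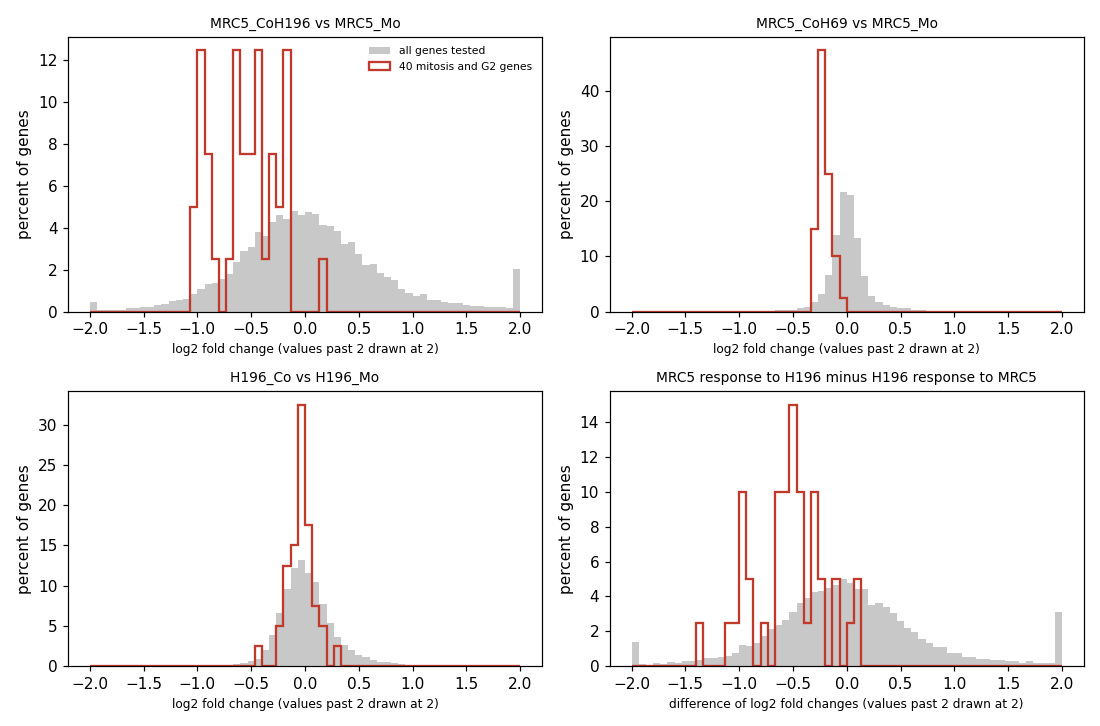
Share of genes (percent) by log2 fold change for all genes tested (grey) and for the 40 mitosis and G2 genes (red outline) in 3 comparisons, and by the difference of the 2 log2 fold changes in the lower right panel, with values past 2 drawn at 2. The red outline lies to the left of the grey one in both MRC5 co-cultures, with medians of -0.53 and -0.22, and over it in H196_Co, with a median of -0.04.

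The 2 co-cultures of MRC5 were then compared directly, without the MRC5_Mo libraries in the contrast. In MRC5_CoH196 against MRC5_CoH69, 11 of 40 genes were lower by the full criteria and 0 higher, where 13.1% of genes tested were lower and 15.2% higher. At adjusted p under 0.05, 30 were lower and 1 higher, where 36.6% of genes tested were lower and 35.7% higher, with a median of -0.36 against -0.01 for all genes. CCNB1 differed most, with 25.3, 25.2 and 23.9 FPKM against 46.7, 47.1 and 50.6 (log2 fold change -0.79, SE 0.05, edgeR adjusted p 1.44e-12). SPC25 was at 4.49, 4.05 and 3.66 against 7.42, 7.52 and 8.06 (log2 fold change -0.75, SE 0.13, edgeR adjusted p 1.32e-05). FOXM1 was at 12.97, 11.7 and 12.7 against 24.6, 24.3 and 21.5 (log2 fold change -0.74, SE 0.08, edgeR adjusted p 7.3e-09). The 3 genes did not overlap between the co-cultures. PLK1 (-0.71), MKI67 (-0.44) and AURKB (-0.18, edgeR adjusted p 0.0394) also differed, although the call for AURKB was lost by the DESeq2 Wald test and without library 1 of MRC5_CoH69 or library 2 or 3 of MRC5_CoH196 (-0.12 to -0.18).

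At the other end, CDK1 was higher with H196 than with H69 (log2 fold change 0.29, SE 0.06, edgeR adjusted p 0.000156), at 22.6, 23.6 and 20.5 FPKM against 20.4, 20.2 and 20.5. On log2(FPKM + 1) the difference shrank to 0.12 and the call was lost. BUB1 (10.95, 10.7 and 10.4 FPKM against 11.4, 12.1 and 11.4) and KIF2C (15.5, 15.8 and 13.99 against 15.97, 17.4 and 16.2) did not pass, at 0.04 and 0.03. TOP2A did not pass on TMM-scaled counts (0.01) but was lower on log2(FPKM + 1), by -0.14, and UBE2C behaved likewise, at 0.01 and -0.19.

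In H196 cells co-cultured with MRC5, few of the 40 genes moved. In H196_Co against H196_Mo, 0 of 40 genes met the full criteria, where 3.26% of 12806 genes tested were higher and 0.601% lower, and DESeq2 also gave 0. By edgeR, 3 were higher and 7 lower at an unadjusted p under 0.05, against 18.4% and 15.1% of genes tested. At adjusted p under 0.05, 1 was higher and 2 lower, where 12% and 7.78% of genes tested were, and the median log2 fold change was -0.04. In TMM-scaled CPM, 4 genes (PLK1, AURKB, CDC20 and UBE2C) were higher without overlap and 8 (ASPM, KIF4A, KIF11, NDC80, DLGAP5, BIRC5, NCAPG and KIF23) lower, where 20.2% and 17% of genes tested were. CDC20 rose, with FPKM of 259, 244 and 248 in H196_Mo and 316, 276 and 302 in H196_Co, without overlap (log2 fold change 0.33, SE 0.07, edgeR adjusted p 0.00295). ASPM, a protein of the spindle poles, fell from 11.1, 9.23 and 9.37 to 6.19, 7.88 and 7.57 FPKM, also without overlap (log2 fold change -0.41, SE 0.09, edgeR adjusted p 0.00369). KIF4A was at 29.8, 26.4 and 26.9 and then 21.3, 22.2 and 24.5 FPKM, near the threshold (log2 fold change -0.21, SE 0.07, edgeR adjusted p 0.0486). The call for KIF4A was lost on leaving out any of the 3 H196_Mo libraries or library 1 or 2 of H196_Co (-0.17 to -0.24).

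Further values did not pass the test. CENPE was at 13.4, 10.4 and 10.6 FPKM in H196_Mo and 7.88, 10.5 and 9.64 in H196_Co (log2 fold change -0.22, edgeR adjusted p 0.114). AURKB was at 99.3, 102 and 101 and then 112, 105 and 106 FPKM (0.17, edgeR adjusted p 0.0886), and UBE2C at 346, 336 and 355 and then 396, 351 and 348 (0.16, edgeR adjusted p 0.117). CENPE and UBE2C overlapped between the groups on this scale and AURKB did not. Values for CCNB1 (-0.10), CDK1 (0.05), FOXM1 (-0.01), PLK1 (0.11), MKI67 (-0.12) and TOP2A (-0.13) did not pass, with edgeR adjusted p between 0.212 and 0.934. On log2(FPKM + 1), 8 of the 40 genes passed instead of 3.

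The responses of MRC5 and H196 to each other were compared by an interaction term in a joint fit of both tables. The term was the response of MRC5 to H196 minus the response of H196 to MRC5. These responses came from separate co-cultures, since H196 was on the insert for MRC5_CoH196 and MRC5 was on it for H196_Co. Of the 40 genes, 14 had a lower response in MRC5 by the full criteria and 0 a higher one, where 12.6% of 13585 genes tested had a lower one and 12.1% a higher one. With no limit on size, 34 were lower at adjusted p under 0.05 and 0 higher, where 27.1% were lower and 24.1% higher, and the median difference was -0.51 against -0.03 for all genes. CDC20, which moved in opposite directions in the 2 lines, had the largest difference (-1.38, SE 0.10, edgeR adjusted p 3.8e-12). PLK1 (-1.12, SE 0.10, edgeR adjusted p 2.41e-10) and FOXM1 (-1.003, SE 0.10, edgeR adjusted p 6.47e-09) followed. CCNB1 (-0.99), AURKB (-0.63) and MKI67 (-0.54) also differed, and TOP2A (-0.08) did not pass. CDK1 (0.08, SE 0.09), TTK (0.01, SE 0.11) and ASPM (0.12, SE 0.11) had the highest values, with edgeR adjusted p of 0.528, 0.947 and 0.4. The count of 14 was 10 without library 3 of MRC5_CoH196 and 21 without library 1 of H196_Mo.

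Other genes of the cell cycle gave the setting of these changes in MRC5_CoH196. Each count by the full criteria is to be read against the 14.7% of all genes tested that fell and the 17.2% that rose. Of 67 other genes of G2 and mitosis, 31 fell and 0 rose. The largest falls were in CENPM, a centromere protein (-1.47, SE 0.12, edgeR adjusted p 5.76e-11), and ZWINT, a kinetochore protein (-1.37, SE 0.07, edgeR adjusted p 3.81e-15). MYBL2, the activator that works with MuvB, fell from 16.04, 18.9 and 21.3 FPKM to 7.41, 6.53 and 7.37 (-1.23, SE 0.09, edgeR adjusted p 2.35e-12). Of 41 genes of S phase and replication, 26 fell and 0 rose, MCM10 and UHRF1 the most (-1.37 and -1.36). Of 19 APC/C and mitotic exit genes, 4 fell and 0 rose, which is near the share of all genes for the falls, with the largest falls in ANAPC15 (-1.003) and ANAPC7 (-0.96), and FBXO5, the APC/C inhibitor EMI1, had -0.54 (edgeR adjusted p 3.87e-06). Of 19 MuvB, DREAM, RB and E2F genes, 4 fell and 1 rose, with the falls again near the share of all genes. Those called included E2F8 (-1.61), E2F2 (-1.25) and TFDP2 (0.82), and E2F1 had -0.57 (edgeR adjusted p 1.46e-05).

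Inhibitors of cyclin-dependent kinases moved in both directions. Of 7 listed, 4 rose and 2 fell, where 17.2% and 14.7% of all genes tested did. CDKN1A, p21, rose from 602, 606 and 588 FPKM in MRC5_Mo to 1032, 962 and 994, with 622, 647 and 625 in MRC5_CoH69 (log2 fold change in MRC5_CoH196 0.91, SE 0.04, edgeR adjusted p 7.66e-16). CDKN1C, p57, rose by a log2 fold change of 1.42 and CDKN1B, p27, by 0.71, while CDKN2B, p15, and CDKN2C, p18, fell by 0.77 and 0.71. In the G2 brakes, 8 of 11 were tested, GADD45B, a stress-induced gene (1.76), and BTG2, an antiproliferative gene (0.63), rose, PKMYT1, a kinase that inhibits CDK1, fell (-0.79), and WEE1, the other kinase that inhibits CDK1, had 0.37 (edgeR adjusted p 2.1e-06). Of 9 G1 cyclins and CDKs, CDK6 (0.90) and CCND2 (0.67) rose, CDC25A (-1.15) and CCNE2 (-0.82) fell, and CCND1 had 0.39 (edgeR adjusted p 7.82e-09). In both the G2 brakes and the G1 list, the counts of rises and falls were near the shares of all genes tested. In H196_Co, 0 of the 67 other G2 and mitosis genes and 0 of the 41 S phase genes met the full criteria, where 3.26% of all genes tested were higher and 0.601% lower, and of the 7 inhibitors CDKN1C rose (1.004, SE 0.27, edgeR adjusted p 0.0119, a call lost without library 1 of H196_Mo at 0.77) and CDKN2B fell (-0.65, SE 0.07, edgeR adjusted p 1.27e-06). In MRC5_CoH69, 0 genes of these lists met the full criteria, and at adjusted p under 0.05 with no limit on size 33 of the 67 and 23 of the 41 were lower and 0 higher, where 2.93% of all genes tested were lower and 3.78% higher.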

How the data were processed

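RNA sequencing of 15 libraries, 3 in each of 5 groups taken from the sample titles, was analysed from the tables of the authors. Total RNA was extracted with TRIzol, mRNA was selected with oligo(dT) and libraries were sequenced on a BGISEQ-500. Per the labels the processing tools included HISAT2 (2.1.0), Bowtie2 (2.3.4.3) and RSEM (1.3.1), with build GRCh38.p13 in the table annotation. The deposited tables hold expected counts and FPKM per library, and the expected counts were rounded to whole numbers here. Another 30 columns of per-library values (TPM and normalized counts) were not used, nor were second copies of the tables or the columns with fold changes, p-values and q-values of the authors (DESeq2 per the file headers). Library strandedness was not given in the sources used here, so genes that overlap on opposite strands could share reads.

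Genes were filtered with filterByExpr, leaving 12819 in MRC5, 12806 in H196 and 13585 in a joint fit of genes in both tables. Counts were scaled by TMM and tested with the edgeR (4.0.16) quasi-likelihood test in R (4.3.3), with p-values adjusted by Benjamini-Hochberg over all genes tested. The 3 MRC5 groups shared 1 fit. The fits were tested on simulated data. DEGs were genes past 0.58 in absolute log2 fold change with adjusted p below 0.05. A permutation test of 3 against 3 libraries cannot go below 0.1 and was not used. Alternatives were DESeq2 (1.42.0), its size factors in edgeR, limma (3.58.1) on log2-transformed FPKM with a pseudocount of 1 or 0.1, other filters and limits, a replicate block, fits of the groups compared alone and leaving out each library. Counts in a library carry a counting floor of 3 counts, 0.156 to 0.187 CPM here, and this covers counting error only. Replicate libraries differed by more than sampling noise, which does not show whether they are independent cultures. Each library was counted as 1 sample.

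The 40 genes and the other lists were chosen with earlier results of these data known. Values of every library are given for the 3 highest and 3 lowest genes of the 40 in each comparison of 2 groups. For MKI67, TOP2A, CCNB1, CDK1, PLK1, AURKB and FOXM1 they are given at least for MRC5_CoH196 and MRC5_Mo. Of the other lists, the 2 largest rises and falls among genes called in MRC5_CoH196 or H196_Co are named. WEE1, FBXO5, MYBL2, CDKN1A, CDKN1B, CDKN1C, CCND1 and E2F1 are named as well. Promoter sequences are from RefSeq (GRCh38.p14).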

Additional observations from a re-analysis of the deposited data

Results flagged for a closer look

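Differences between groups were tested directly. Between MRC5 exposed to H196 and H196 exposed to MRC5, 34 of the 40 genes had a lower response in MRC5 and 0 a higher one at adjusted p under 0.05 (edgeR interaction term), where 27.1% of all genes tested had a lower and 24.1% a higher one. Among the named genes the difference of log2 fold changes was -1.38 for CDC20, -1.12 for PLK1, -1.003 for FOXM1, -0.99 for CCNB1, -0.63 for AURKB and -0.54 for MKI67.

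Between MRC5 exposed to H196 and MRC5 exposed to H69, 31 of the 40 genes differed by the edgeR test of the 2 co-cultures, 30 lower and 1 higher with H196. Of all genes tested, 36.6% were lower and 35.7% higher, so the number of genes that differed was near the share for all genes, and the 2 directions were unequal among the 40. The log2 difference was -0.79 for CCNB1, -0.75 for SPC25, -0.74 for FOXM1, -0.71 for PLK1, -0.44 for MKI67 and -0.18 for AURKB, and CDK1 differed in the other direction, at 0.29. No library was tested as an outlier, since each group has 3.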

How the results depend on the processing

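The count of genes by the full criteria moved with the limit on size. With no limit it was 39 in MRC5_CoH196, 28 in MRC5_CoH69, 31 between the 2 co-cultures, 3 in H196_Co and 34 for the difference of responses. The shares of all genes with no limit are given with each comparison above. With a limit of 1 it was 2 in MRC5_CoH196, 0 between the co-cultures and 3 for the difference. Shares of all genes at a limit of 1 were not counted. On log2(FPKM + 0.1) the count was 27 in MRC5_CoH196 and 18 between the co-cultures. The calls over all genes moved too. In MRC5_CoH196 they were 2869 lower and 1437 higher on that scale, against 1885 and 2207 on TMM-scaled counts. Between the co-cultures they were 2567 lower and 1281 higher, against 1675 and 1943. At adjusted p under 0.05 alone, limma gave 7 in MRC5_CoH69 and 8 in H196_Co on log2(FPKM + 1), and 7 and 8 on log2(FPKM + 0.1). Leaving out 1 library gave counts by the full criteria of 16 to 21 in MRC5_CoH196, 0 in MRC5_CoH69, 10 to 11 between the co-cultures, 0 in H196_Co, 29 to 30 between the lines and 10 to 21 for the difference. At adjusted p alone the ranges were 35 to 39, 7 to 33, 27 to 30, 2 to 4, 40 to 40 and 30 to 34, in the same order. Calls over all genes by the full criteria also changed. In MRC5_CoH196 1871 genes were lower without library 2 of MRC5_Mo and 1864 without library 1. For the difference 1341 were lower without library 3 of MRC5_CoH196 and 1649 without library 1 of H196_Mo. Signs that reversed on log2(FPKM + 1) and log2(FPKM + 0.1) were those of CDK1 in MRC5_CoH196 (-0.019 and -0.020), UBE2C (-0.19 and -0.19) and TOP2A (-0.14 and -0.15) between the co-cultures, ANLN (0.14 and 0.14), ANAPC15 (0.32 and 0.33) and CENPM (0.33 and 0.34) between the lines, and CCND2 (0.46 and 0.45) in the difference of responses. The cause was not tested. Sign changes of genes called in neither fit were not counted as reversals.

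Replicate numbers did not pair the libraries, with correlations of same-numbered libraries from -0.15 to 0.08. With a replicate block the counts by the full criteria were 17 in MRC5_CoH196, 0 in MRC5_CoH69, 11 between the co-cultures, 0 in H196_Co, 30 between the lines and 14 for the difference, and at adjusted p alone 39, 26, 31, 2, 40 and 33. Each group had 3 libraries with 16073597 to 19170560 counts in a library, which limits the precision of small values.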

Other observations

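Broader gene sets, taken from the annotation columns of the deposited tables with the 40 genes left out, gave these counts. Of 170 other genes tested in the hallmark G2M checkpoint set, 63 were lower and 11 higher by the full criteria in MRC5_CoH196, with a median log2 fold change of -0.43. Of 181 other E2F target genes, 76 were lower and 5 higher, with a median of -0.50. The mitotic spindle set, which also holds many genes of the cytoskeleton outside mitosis, had 9 of 176 lower and 23 higher, both below the shares of all genes, and a median of 0.09. All genes tested had a median of -0.003, with 14.7% lower and 17.2% higher.

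In MRC5_CoH69, 0 genes of the G2M checkpoint and E2F target sets and 1 gene of the mitotic spindle set met the full criteria by edgeR, and at an adjusted p under 0.05 with no limit on size 38 of 170, 43 of 181 and 8 of 176 genes were lower and 5, 1 and 8 higher, in the order above. Of all genes tested, 2.93% were lower and 3.78% higher, and the mitotic spindle counts were near these shares.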
